A study of Canis lupus familiaris with 16 samples.

Results

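Mural cell genes, 10 in all, were followed in canine soft tissue sarcomas: ACTA2, RGS5, MCAM, CSPG4, DES, MYH11, TAGLN, CNN1, CALD1 and MYLK. They were chosen by name as pericyte and smooth muscle markers and make up 10 of the 41818 genes in the count table. RNA was sequenced from formalin-fixed, paraffin-embedded sections of 16 tumors removed from pet dogs of various breeds, aged 2 to 14 y, and no treatment is given in the labels. The histological diagnosis was perivascular wall tumor (PWT) in 6, fibrosarcoma (FS) in 5 and peripheral nerve sheath tumor (PNST) in 5. By molecular identity there were 4 FS (dogs of 9 to 13 y), 6 PNST (8 to 13 y) and 6 PWT (2 to 14 y), since S1-10 had moved from PWT to PNST and S2-08 from FS to PWT. The study placed these 2 tumors by gene expression in these same samples, so p-values for groups of molecular identity are not independent of expression. Each sample was a piece of whole tumor, in which fewer cells of a type and less RNA per cell cannot be told apart. S1-04 and S1-05 carry the same entries in the labels and may come from 1 dog.

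Mural cells wrap the endothelial tube of blood vessels. Pericytes cover capillaries and small venules, are held there by signals from the endothelium and are usually recognized by surface proteins and signalling genes such as CSPG4, MCAM and RGS5. Vascular smooth muscle cells surround larger vessels and contract through smooth muscle actin and myosin, and they carry a set of actin-binding proteins (TAGLN, CNN1 and CALD1) and the kinase that turns myosin on (MYLK). None of these genes belongs to mural cells alone: activated fibroblasts also make ACTA2 and TAGLN, and desmin (DES) is a filament of all muscle. Canine perivascular wall tumors are named for their growth around vessels and are thought to arise from mural cells, whereas FS and PNST are held to arise from fibroblasts and from cells of the nerve sheath, and the comparison here asks how mural cell genes differed between the 3 types.

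Levels are given as CPM, the reads on a gene scaled to a common number of reads on all genes of a tumor with factors from the trimmed mean of M values (TMM), with runs of the same tumor summed. Between 507728 and 4311876 reads fell on genes per tumor, and 22.9% to 30.6% of the listed reads were on genes. All 10 genes had at least 1 read in every tumor and all 10 passed the filter on low counts (at least 10 reads in at least 4 tumors), which 15408 genes passed. Summed over the 16 tumors, the genes held from 218 reads (CNN1) to 9660 reads (CALD1), so CNN1 and DES, with a median of 8 reads per tumor each, were measured with the least precision. The FS S1-11 stood apart from the other tumors. It was the highest of the 16 in 7 of the 10 mural cell genes, its 20 skeletal muscle genes summed to 2544 CPM, against 23.9 to 657 CPM in the other 15 tumors, and its 10 fibroblast and myofibroblast genes summed to 102937 CPM, against 10028 to 38492 CPM. Results that rest on S1-11 are therefore given with and without it.

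**Figure D1:**
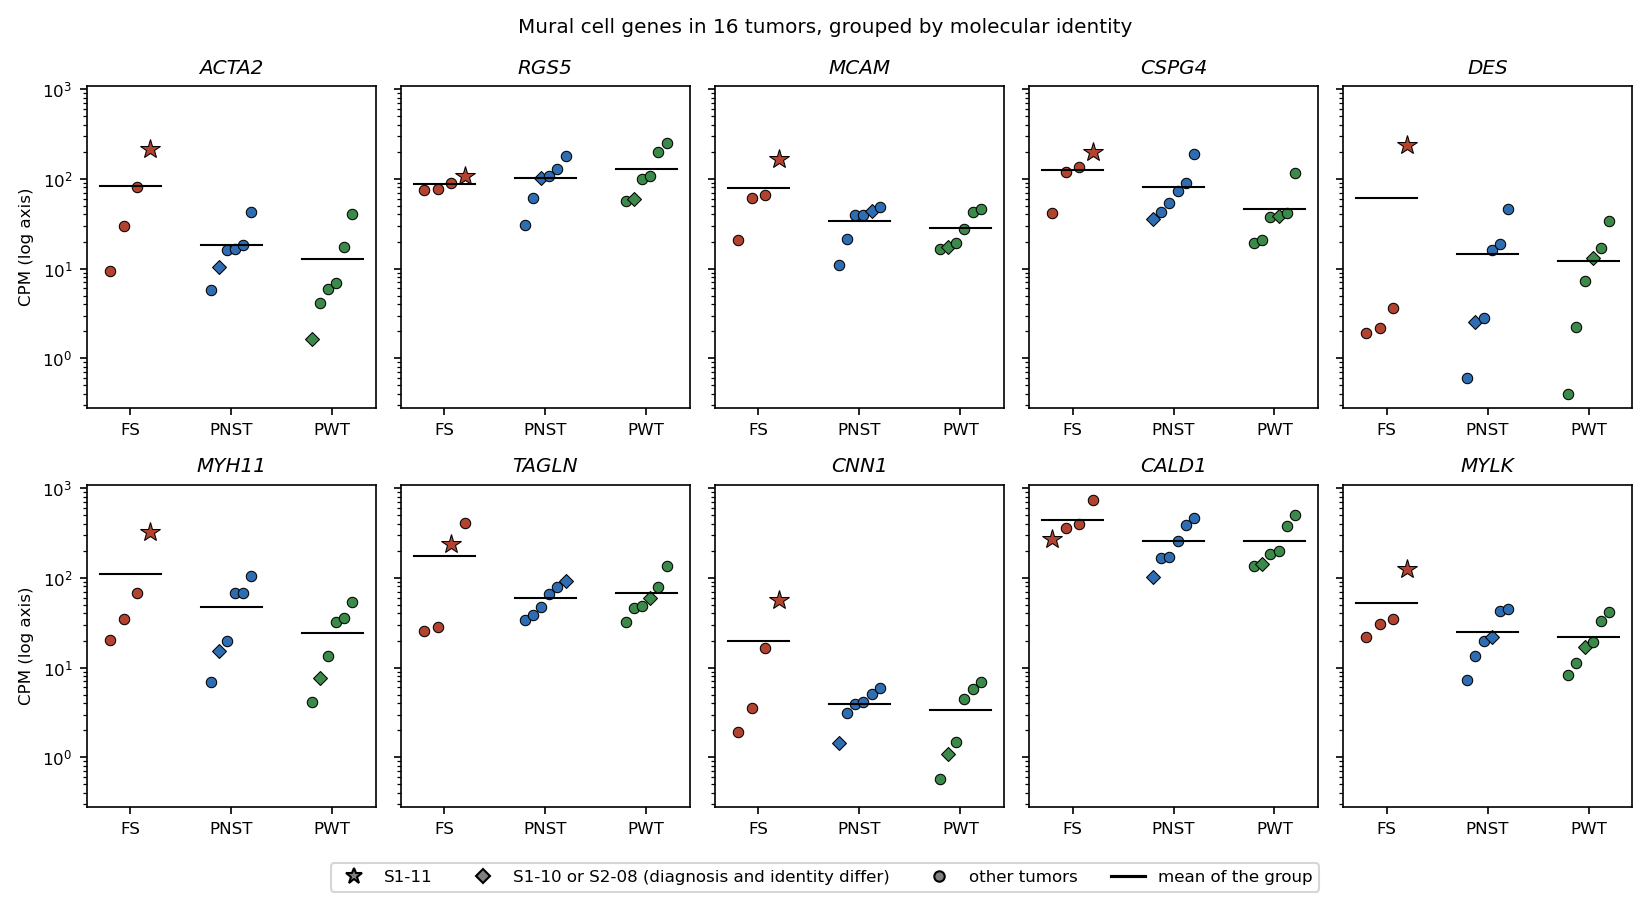
Levels of the 10 mural cell genes in 16 tumors, as CPM on a log axis, with 1 point per tumor and a line at the mean of each group by molecular identity. The star marks S1-11, the highest tumor for 7 genes, and diamonds mark S1-10 and S2-08, whose diagnosis and molecular identity differ. The groups overlapped for all 10 genes, and the share of all genes tested with overlapping groups was not computed.

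Mean levels of the mural cell genes were mostly highest in FS and lowest in PWT, and RGS5 had the opposite order. By molecular identity the mean was highest in FS for 9 of 10 genes and lowest in PWT for 7. Without S1-11 it was highest in FS for 7 (not for RGS5, DES and MYH11) and lowest in PWT for 6. In edgeR's quasi-likelihood test of FS against both other types pooled, 3 of the 10 genes were called higher (adjusted p under 0.05 and a change of more than 1 on the log2 scale), and none was called lower. These were ACTA2, the actin of smooth muscle, CNN1 (calponin), which binds actin and slows myosin, and MCAM (CD146), an adhesion protein of mural and endothelial cells. Of all 15408 genes tested, 1457 (9.46%) were called in this comparison, 890 of them higher. The median log2 fold change of the 10 genes was 1.40, against 0.00386 over all genes tested, and 7 of the 10 had an unadjusted p under 0.05, as 3915 of all genes did (25.4%). All 3 calls rested on S1-11: without it, 0 of the 10 genes and 911 of 15227 genes were called, and the median log2 fold change of the 10 was 0.63.

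ACTA2 stood at 9.32 CPM in S1-02, 29.5 CPM in S2-06, 81.0 CPM in S1-12 and 213 CPM in S1-11, the 4 FS. In PNST it ranged from 5.73 to 42.1 CPM (median 16.3, n = 6), and in PWT from 1.64 to 40.9 CPM (median 6.41, n = 6). S1-12 and S1-11 lay above every other tumor, while S1-02 lay below 5 of the 6 PNST. The mean was 83.3 ± 91.8 CPM in FS (SD, n = 4), 18.2 ± 12.6 CPM in PNST and 12.8 ± 14.8 CPM in PWT. FS was 5.28-fold higher than the other types by the fit (log2 fold change 2.40, SE 0.63, adjusted p = 0.0198). Without S1-11 the log2 fold change was 1.28 (adjusted p = 0.299). ACTA2 has near-identical relatives among the other actin genes. The study's methods do not state how reads that aligned to more than 1 place were counted, so the level of ACTA2 is uncertain.

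CNN1 was the least abundant of the 10 genes in reads. It stood at 1.90 CPM in S2-06, 3.59 CPM in S1-02, 16.6 CPM in S1-12 and 57.0 CPM in S1-11, the last from 104 reads and with a 95% interval of 46.6 to 69.1 CPM for counting error only. PNST ranged from 1.45 to 5.97 CPM (median 4.01) and PWT from 0.570 to 6.97 CPM (median 2.97). The FS S1-11 and S1-12 were again above all other tumors, and the other 2 FS were inside the range of PNST and PWT. The log2 fold change of FS against both other types was 2.44 (SE 0.62, adjusted p = 0.0162), and 0.80 without S1-11 (adjusted p = 0.549).

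MCAM stood at 20.8 CPM in S1-02, 60.8 CPM in S1-12, 66.5 CPM in S2-06 and 167 CPM in S1-11. PNST ranged from 10.9 to 49.0 CPM (median 39.5) and PWT from 16.5 to 46.0 CPM (median 23.4). Here 3 of the 4 FS were above every PNST and PWT, with S1-02 among the lower tumors. The log2 fold change was 1.35 (SE 0.41, adjusted p = 0.0403), and 0.65 without S1-11 (adjusted p = 0.399). This call was also lost when any 1 of S1-03, S1-07, S1-12, S2-06, S2-08 or S2-11 was left out, where log2 fold changes were 1.29 to 1.44 and adjusted p-values 0.0520 to 0.0614.

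**Figure D2:**
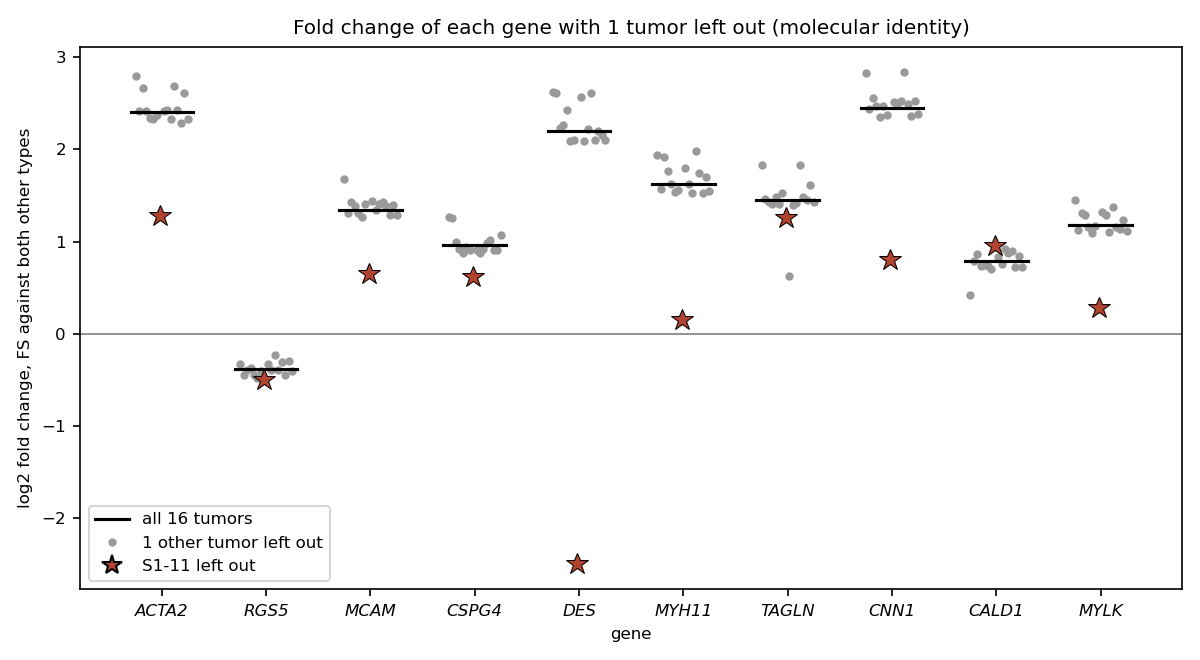
Log2 fold change of each mural cell gene in FS against both other types by molecular identity, with all 16 tumors (black line) and with 1 tumor left out at a time (points). The star, the fit without S1-11, lies at 0.80 for CNN1, 0.65 for MCAM, 0.28 for MYLK, 0.15 for MYH11 and -2.50 for DES, while TAGLN and CALD1 stay near their values in all tumors.

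The other contractile genes were not called in FS by molecular identity, and their values were as follows. MYH11, the myosin heavy chain of smooth muscle and its most specific marker, stood at 20.4, 35.1 and 68.1 CPM in S2-06, S1-02 and S1-12, and at 320 CPM in S1-11. It ranged from 6.94 to 105 CPM in PNST and from 4.18 to 53.1 CPM in PWT, so that only S1-11 lay above the other types. Its log2 fold change in FS was 1.63 (SE 0.68, adjusted p = 0.132), and 0.15 without S1-11. MYLK, the myosin light chain kinase, had a similar spread: 21.9, 30.4, 35.0 and 124 CPM in S1-02, S2-06, S1-12 and S1-11, 7.24 to 44.9 CPM in PNST and 8.36 to 41.6 CPM in PWT. Its log2 fold change was 1.18 (SE 0.46, adjusted p = 0.113), and 0.28 without S1-11.

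TAGLN (transgelin, SM22), an actin-bundling protein of early smooth muscle, split the FS into a high and a low pair. S1-12 had 405 CPM and S1-11 239 CPM, whereas S1-02 had 28.0 CPM and S2-06 25.7 CPM, the lowest of all 16 tumors being S2-06. PNST ranged from 33.9 to 91.3 CPM and PWT from 31.9 to 137 CPM. The log2 fold change in FS was 1.45 (SE 0.51, adjusted p = 0.0739), and 1.25 without S1-11 (adjusted p = 0.216). It passed the test when S1-02 (1.83, adjusted p = 0.0209), S2-06 (1.83, adjusted p = 0.0211) or S2-09 (1.62, adjusted p = 0.0472) was left out, while without S1-12 it was 0.63.

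CALD1 (caldesmon) regulates actin filaments in smooth muscle and, as a shorter form, in most other cells, and gene counts do not separate these forms. Its highest level was 739 CPM in S1-02, an FS in which ACTA2, TAGLN and MCAM were low, and S1-11 had the lowest CALD1 of the 4 FS (268 CPM). S2-06 had 360 CPM and S1-12 394 CPM, within the range of PNST (101 to 457 CPM) and PWT (135 to 503 CPM). The log2 fold change in FS was 0.78 (SE 0.38, adjusted p = 0.206), and 0.96 without S1-11.

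The pericyte genes RGS5 and CSPG4 had different orders over the types. RGS5, a brake on G protein signalling that is among the strongest pericyte markers, was the only gene of the 10 with a negative log2 fold change in FS (-0.39, SE 0.41, adjusted p = 0.607). It was also the most even one in FS, at 75.5, 77.4, 90.3 and 106 CPM in S1-12, S1-02, S2-06 and S1-11. PNST ranged from 30.8 to 180 CPM (median 104) and PWT from 57.0 to 249 CPM (median 104), with the PWT S2-04 (249 CPM) and S2-09 (196 CPM) the highest of all. The mean order was PWT (128 ± 78.0 CPM), PNST (102 ± 52.2 CPM) and FS (87.3 ± 14.0 CPM), and no 2 neighbours in this order differed beyond their spread. CSPG4 (NG2), the proteoglycan by which pericytes are often stained, stood at 41.2, 118, 136 and 198 CPM in S1-02, S2-06, S1-12 and S1-11. It ranged from 35.9 to 188 CPM in PNST and from 19.4 to 115 CPM in PWT, in which 5 of the 6 tumors lay at or below 41.8 CPM. The log2 fold change in FS was 0.96 (SE 0.48, adjusted p = 0.220), and in PWT against both other types -1.10 (SE 0.46, adjusted p = 0.167).

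DES (desmin), the muscle filament protein, varied the most, 585-fold between the lowest and the highest tumor. S1-11 had 236 CPM, while the other 3 FS had 1.90 (S2-06), 2.15 (S1-02) and 3.68 CPM (S1-12), within the range of the other types. PNST ranged from 0.603 to 46.1 CPM (median 9.42) and PWT from 0.404 to 33.6 CPM (median 10.2). The log2 fold change in FS was 2.20 (SE 0.97, adjusted p = 0.161) with S1-11 and -2.50 (adjusted p = 0.250) without it. Among the tumors with the most skeletal muscle transcripts, S1-11 (2544 CPM summed), the PWT S1-07 (657 CPM) and the PWT S2-09 (257 CPM), DES was 236, 33.6 and 7.36 CPM. The PNST S1-03, with 46.1 CPM of DES, had 56.0 CPM of skeletal muscle genes. In it 16 of the 20 genes of that list were detected, and MYH4, TNNI2, MB and CASQ1 were at 0 reads. All 20 were detected in S1-11, 19 in S1-07 and 18 in S2-09, and MYH4 was at 0 reads in the latter 2 as well. Of the 8 skeletal muscle genes tested, 3 (MYH7, NEB and RYR1) were called higher in FS, against 9.46% of all genes called. Without S1-11 none was, against 911 of 15227 genes. The part of skeletal muscle RNA in the DES values of S1-11 was not tested.

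**Figure D3:**
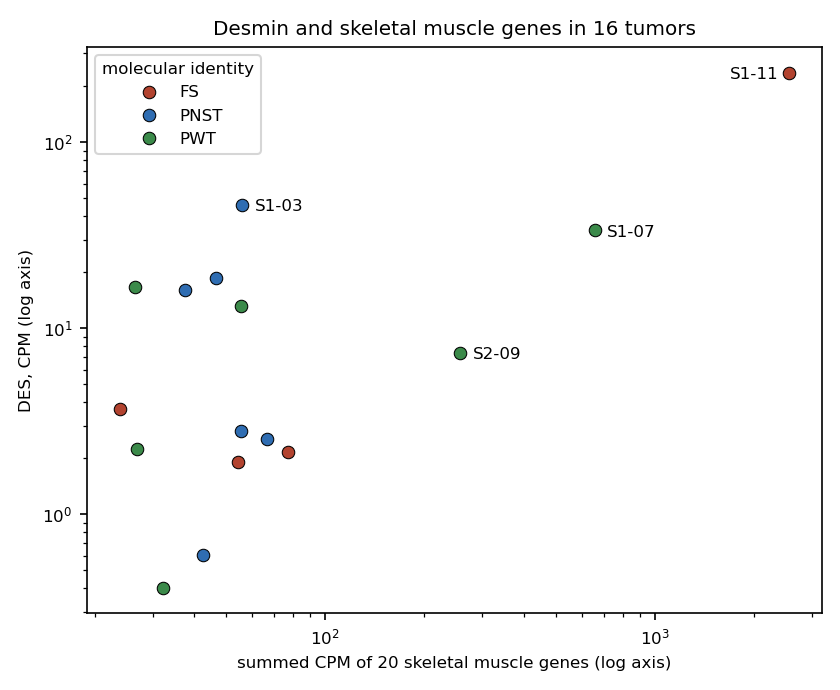
DES level against the summed level of 20 skeletal muscle genes in 16 tumors, both as CPM on log axes, colored by molecular identity. S1-11 has the highest value on both axes, and S1-03 has the second highest DES (46.1 CPM) with 56.0 CPM of skeletal muscle genes.

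In PWT, the type named for the vessel wall, 0 of the 10 mural cell genes were called against both other types by molecular identity, while 327 of 15408 genes were (2.12%). At an unadjusted p under 0.05 there were 3, against 3449 of all genes (22.4%), and all 3 were lower in PWT: ACTA2 (log2 fold change -1.76, SE 0.81), CSPG4 (-1.10) and MYH11 (-1.56, SE 0.73), each with an adjusted p of 0.167 to 0.214. With all 16 tumors, the 95% intervals of these differences were -3.46 to -0.048 for ACTA2, -2.06 to -0.13 for CSPG4 and -3.08 to -0.031 for MYH11. Over omissions of 1 tumor, values ranged from -2.53 to -0.92 (ACTA2), -1.63 to -0.92 (CSPG4) and -1.92 to -0.86 (MYH11). Leaving out S1-11 lowered the FS mean from 83.3 to 39.9 CPM for ACTA2 and from 111 to 41.2 CPM for MYH11. For CSPG4 it fell from 123 to 98.4 CPM. RGS5 had the only positive value (0.41, SE 0.35, 95% interval -0.33 to 1.15, adjusted p = 0.506). The median over the 10 genes was -0.99, against -0.079 for all genes tested, and without S1-11 it was -0.44. In PNST against both other types no gene of the 10 was called and none had an unadjusted p under 0.05. There, 0 of 15408 genes (0%) were called by edgeR, 2415 (15.7%) had an unadjusted p under 0.05, and the median over the 10 genes was -0.49.

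**Figure D4:**
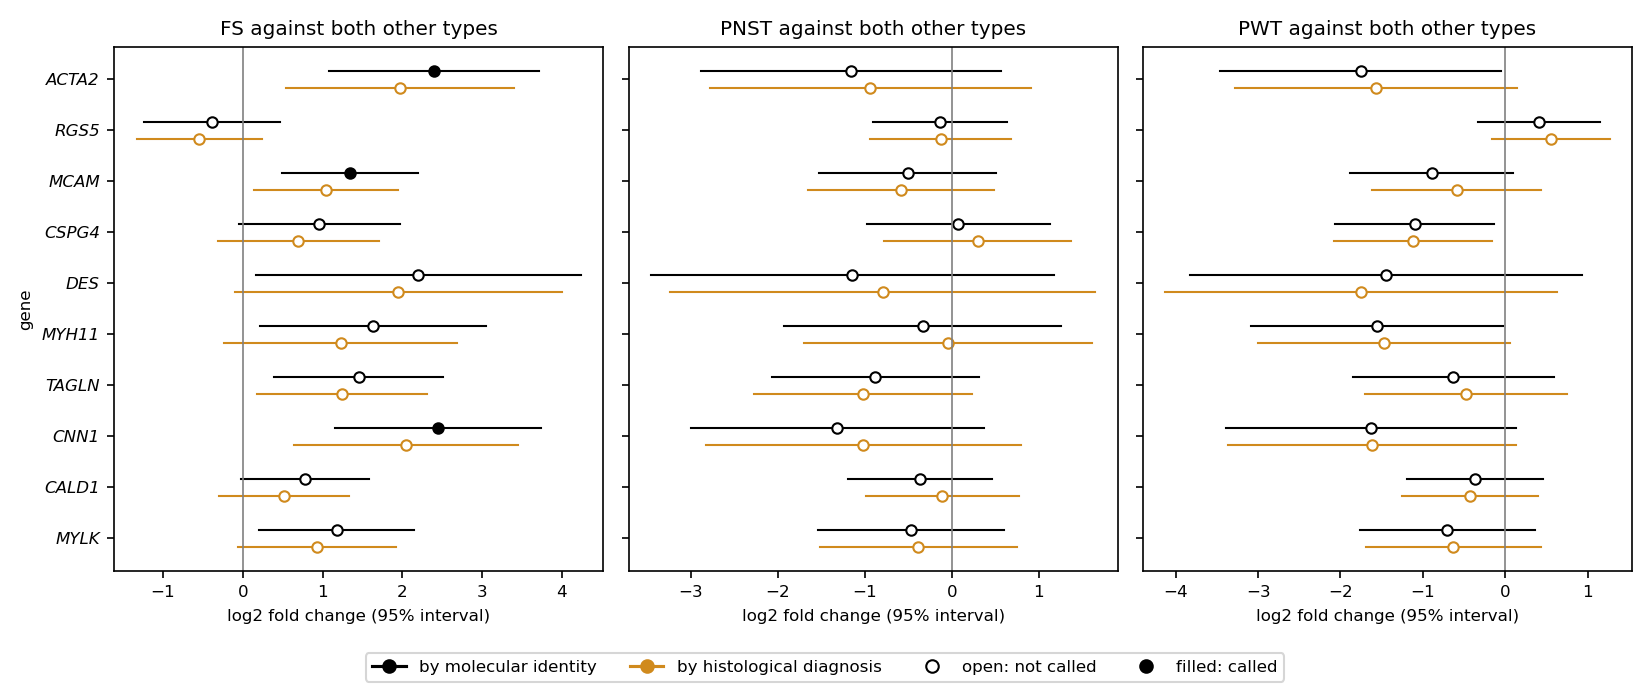
Log2 fold change with its 95% interval for each mural cell gene in FS, PNST and PWT, each against both other types, by molecular identity (black) and by histological diagnosis (orange). Filled points, which passed the test, are ACTA2, MCAM and CNN1 in FS by molecular identity, and intervals of RGS5 include 0 in all 3 panels.

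Between pairs of types by molecular identity, ACTA2 (log2 fold change -2.68, SE 0.79, adjusted p = 0.0332) and CNN1 (-2.62, SE 0.79, adjusted p = 0.0365) were called lower in PWT than in FS, in a comparison that called 1726 of 15408 genes (11.2%). MCAM lay just outside the threshold (-1.50, SE 0.49, adjusted p = 0.0503). The other 7 genes were not called, and RGS5 was again the only one with a positive value (0.54, SE 0.45). Without S1-11 the 2 calls were lost (ACTA2 -1.55, adjusted p = 0.244; CNN1 -0.96, adjusted p = 0.487), and they were also lost when S1-07 or S2-08 was left out (adjusted p 0.0585 to 0.0724). Without S2-11, CSPG4 was the only call of the 10 (-1.97, adjusted p = 0.0224), with 1249 of 15334 genes called. Without S1-02 there were 4 calls (1610 of 15020 over all genes), and without S2-06 also 4 (1898 of 15202). Without S2-04, ACTA2 was not called (-2.54, adjusted p = 0.0647) while MCAM was (1344 of 15398 over all genes). Neither PWT against PNST (26 genes called, 0.169%) nor PNST against FS (1099 genes, 7.13%) called any of the 10. In PNST against FS, 4 of the 10 had an unadjusted p under 0.05 (23.2% of all genes) and the median was -1.23, whereas in PWT against PNST none did (19.6% of all genes) and the median was -0.28. In PNST against FS, 4 genes (ACTA2, MCAM, TAGLN and CNN1) were called without S1-02 (1079 of 15020 over all genes), and CNN1 without S2-06 (902 of 15202). These comparisons share tumors and are not independent of each other. In the test for any difference among the 3 types, 2 of 10 genes passed (ACTA2 and CNN1), against 2141 of 15408 (13.9%). Neither passed without S1-11, nor without any 1 of S1-03, S1-05, S1-09, S1-10, S1-12, S2-08 or S2-11, and ACTA2 did not pass without S1-07 or S2-04.

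By histological diagnosis, in which S2-08 counts as FS and S1-10 as PWT, 0 of the 10 genes were called in any comparison. In FS against both other types 205 of 15408 genes were called (1.33%), and 4 of the 10 mural cell genes (ACTA2, MCAM, TAGLN and CNN1) had an unadjusted p under 0.05, as did 2374 of all genes (15.4%), with a median log2 fold change of 1.14. ACTA2 was at 1.97 (SE 0.68, adjusted p = 0.158) and CNN1 at 2.05 (SE 0.67, adjusted p = 0.130). S2-08 had the lowest ACTA2 of all tumors (1.64 CPM) and 1.09 CPM of CNN1, below every other FS by diagnosis. Without S2-08, ACTA2 (2.29, adjusted p = 0.0241) and CNN1 (2.36, adjusted p = 0.0254) passed the test, and 1235 of 15329 genes were called. That fit sets the 4 FS by molecular identity against the same other tumors. It is therefore the fit by molecular identity again and not a separate result by diagnosis. In PWT against both other types by diagnosis, edgeR called 0 of 15408 genes (0%; 2232, or 14.5%, at an unadjusted p under 0.05), and among the 10 only CSPG4 had an unadjusted p under 0.05 (-1.12, SE 0.46, adjusted p = 0.280). PNST by diagnosis called 0 genes of all (0%; 1226, or 7.96%, at an unadjusted p under 0.05), with no mural cell gene among the latter. The test for any difference among the 3 types by diagnosis called 30 genes (0.195%) and none of the 10. In RGS5, the mean order by diagnosis was the same, with 135 ± 72.2 CPM in PWT (n = 6), 102 ± 58.3 CPM in PNST (n = 5) and 81.6 ± 17.5 CPM in FS (n = 5).

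The names of 9 tumors begin with S1 and those of 7 with S2, and the prefix, which may mark the 2 groups in which libraries were sequenced, was unevenly spread: S1 held 3 of 4 FS, 5 of 6 PNST and 1 of 6 PWT. Among S1 tumors, ACTA2 averaged 101 ± 103 CPM in the 3 FS and 18.2 ± 14.1 CPM in the 5 PNST, and was 6.84 CPM in the only PWT. Among S2 tumors it was 29.5 CPM in the only FS, 18.5 CPM in the only PNST and 14.0 ± 16.2 CPM in the 5 PWT. CNN1 averaged 25.7 ± 27.9 CPM in S1 FS against 3.71 ± 1.64 CPM in S1 PNST, but was 1.90 CPM in the S2 FS, below the S2 PNST (5.04 CPM) and the mean of the S2 PWT (3.94 ± 2.58 CPM). MCAM was highest in FS under both prefixes, at 82.8 ± 75.4 CPM in S1 and 66.5 CPM in S2. RGS5 among S2 tumors averaged 142 ± 78.0 CPM in PWT, between the FS (90.3 CPM) and the PNST (180 CPM), and the S1 PWT had 57.0 CPM, below the mean of S1 FS (86.3 ± 17.0 CPM). In a model that also held the prefix, ACTA2 (2.24, adjusted p = 0.0487) and CNN1 (2.32, adjusted p = 0.0499) were still called in FS and MCAM was not (1.34, adjusted p = 0.0553), and no gene of the 10 was called in PWT against FS.

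Across the 16 tumors the 10 genes were correlated only in part. Of the 45 pairs, 14 had a Pearson's r of log2 CPM above 0.5 and the median was 0.39; without S1-11 these were 8 pairs and 0.26. The closest pairs were MYH11 with MYLK (r = 0.88, and 0.81 without S1-11) and ACTA2 with MYH11 (0.85, and 0.78), all parts of the contractile apparatus. RGS5 went with MCAM (0.53, and 0.64 without S1-11) and had r of 0.078 to 0.39 with the 6 contractile genes ACTA2, MYH11, TAGLN, CNN1, CALD1 and MYLK (0.061 to 0.39 without S1-11). DES, which had r of 0.02 to 0.43 with the other 9 genes, had r of -0.13 to 0.15 without S1-11. Both genes of a pair come from the same libraries and may vary together with depth and tumor type, and these correlations are a description of 16 tumors.

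**Figure D5:**
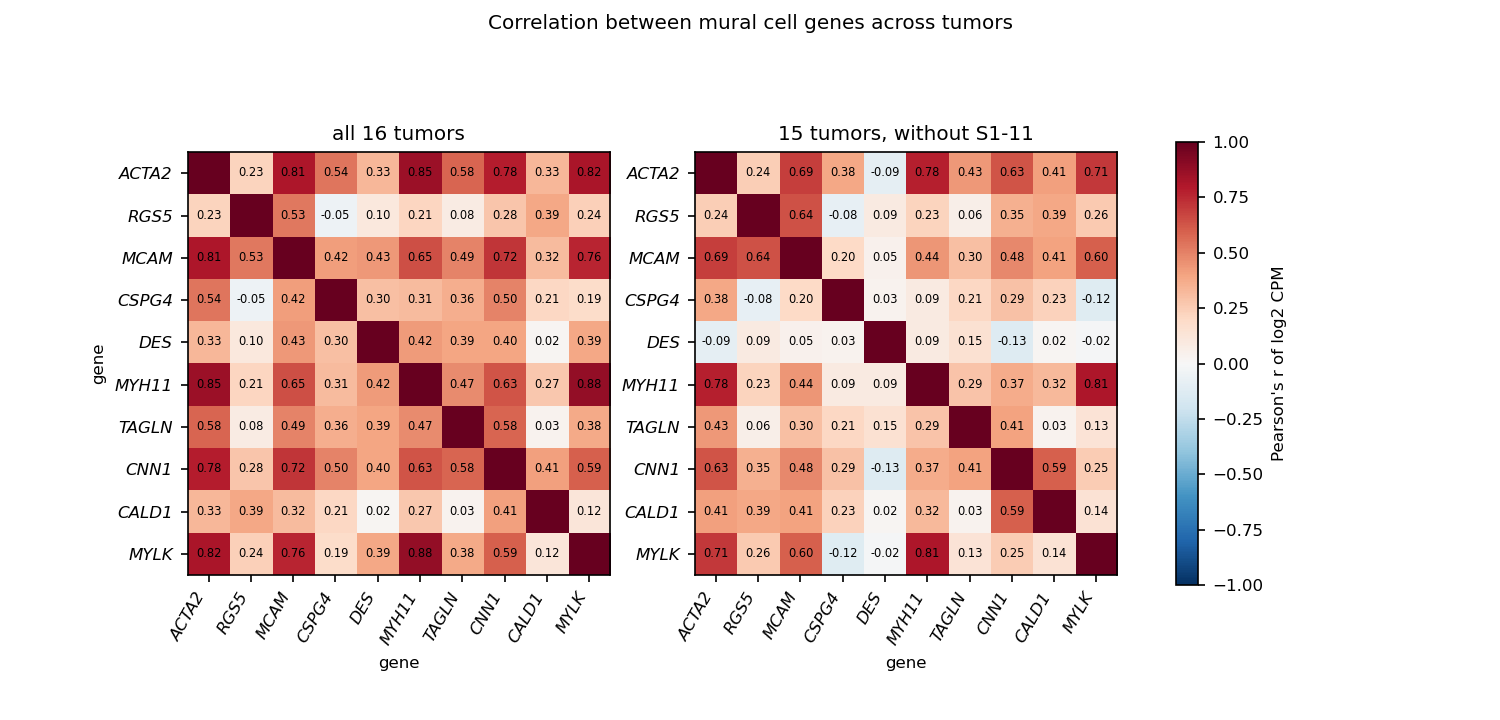
Pearson's r of log2 CPM between the 10 mural cell genes, over all 16 tumors (left) and over 15 tumors without S1-11 (right). ACTA2, MYH11 and MYLK keep r of 0.71 or more with each other in both panels, and values in the DES row lie near 0 without S1-11.

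Outside the 10 genes, the genes whose log2 CPM followed a mural cell gene most closely over the 16 tumors were mostly of other classes. They were MYO10, an unconventional myosin of filopodia, for ACTA2 (r = 0.91), RAMP2, an accessory protein of the adrenomedullin receptor, for MYLK (0.91), NEURL1B for MCAM (0.90), FCER2 for MYH11 (0.87), LOC102153193 for CNN1 (0.85), PLXNB3 for TAGLN (0.85), AZIN1 for CALD1 (0.83), MPPED1 for DES (0.83), DOC2B for CSPG4 (0.82) and RP2 for RGS5 (0.76). PTPN14, a phosphatase, was among the 3 nearest genes of ACTA2, MYH11 and MYLK (0.86, 0.85 and 0.88), and MYO10 was also near MCAM (0.89). These genes were picked for the highest r among very many genes over only 16 tumors. How high such a top r would be by chance was not tested, so no link between the genes is drawn from it. The values were computed with all 16 tumors only. Their dependence on single tumors, such as the FS that was highest in most mural cell genes, is not known.

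Only some of the other pericyte genes differed between types. Of 22 listed, 16 were tested, and in FS by molecular identity 3 were called higher and 0 lower, with a median log2 fold change of 0.51, in a comparison that called 9.46% of all genes. They were EDNRA (2.07, SE 0.61, adjusted p = 0.0345), the endothelin A receptor by which mural cells contract, LAMC3 (2.59, SE 0.73, adjusted p = 0.0281), a laminin chain, and NDUFA4L2 (2.02, SE 0.63, adjusted p = 0.0477), a mitochondrial protein. The same comparison in PWT called EDNRA (-2.50, SE 0.64, adjusted p = 0.0449) and LAMC3 (-3.25, SE 0.84, adjusted p = 0.0458) lower and no pericyte gene higher (2.12% of all genes called). EDNRA ranged from 44.1 to 425 CPM in FS, from 20.4 to 139 CPM in PNST and from 6.56 to 44.2 CPM in PWT. LAMC3 was narrow in PWT (4.49 to 8.99 CPM), wide in PNST (5.43 to 58.0 CPM) and widest in FS (9.98 to 398 CPM). Without S1-11, EDNRA (1.99, adjusted p = 0.0914) and NDUFA4L2 (1.00, adjusted p = 0.457) were not called in FS while LAMC3 was (2.78, adjusted p = 0.0458), and the 2 calls in PWT were lost (adjusted p = 0.0667 for LAMC3 and 0.0701 for EDNRA). Without S1-12, LAMC3 (0.95) and EDNRA (1.43) were not called in FS. NDUFA4L2 was lost under 12 of 16 single omissions and each of the 2 PWT calls under 10 of 16, and with the prefix in the model neither PWT call passed (-2.37, adjusted p = 0.375 for EDNRA and -1.90, adjusted p = 0.553 for LAMC3), nor did any of the 15408 genes. PDGFRB, the receptor by which pericytes are recruited and the most abundant gene of the list, was found in every tumor (116 to 987 CPM) and was not called in FS (0.84, SE 0.39, adjusted p = 0.190) or in PWT (-0.73, SE 0.39, adjusted p = 0.275). ITGA7, a laminin receptor of smooth muscle, averaged 304 CPM in PNST, 168 CPM in PWT and 83.8 CPM in FS and was at -1.48 in FS (SE 0.55, adjusted p = 0.0907), and PLXDC1 averaged 216 CPM in FS, 192 CPM in PNST and 185 CPM in PWT.

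Of 29 further smooth muscle contractile genes in the table, 27 were tested, and 3 were called higher in FS by molecular identity and 0 lower (median 0.57), against 9.46% called of all genes. ACTN1 (alpha-actinin), an actin cross-linker of many cell types, ranged from 67.9 to 324 CPM in FS, above all PNST (17.8 to 54.7 CPM) and all PWT (5.24 to 65.4 CPM). How many of all genes tested separated in this way was not counted. The log2 fold change of ACTN1 was 2.55 (SE 0.43, adjusted p = 0.00118), and it was called under all 23 alternatives, 2.02 without S1-11 (adjusted p = 0.0129). By histological diagnosis ACTN1 was the only gene of the 3 mural lists called in FS (2.19, SE 0.50, adjusted p = 0.0361), a call lost under 11 of 16 single omissions (1.60 without S1-11, adjusted p = 0.190). TPM2, a tropomyosin, was at 2.30 (SE 0.59, adjusted p = 0.0175), and 1.08 without S1-11 (adjusted p = 0.333). MYL9, the regulatory light chain that MYLK phosphorylates, was at 1.41 (SE 0.35, adjusted p = 0.0132), and 1.14 without S1-11 (adjusted p = 0.0907) and 1.07 without S1-12 (adjusted p = 0.0716). SMTN (smoothelin), a marker of contractile smooth muscle, was called lower in PWT (-1.29, SE 0.32, adjusted p = 0.0386), at 11.5 to 29.1 CPM in PWT, 29.2 to 74.5 CPM in PNST and 25.7 to 96.5 CPM in FS. That call was lost under 8 of 16 single omissions (-1.11 without S1-11, adjusted p = 0.0501) and with the prefix as a term (-0.74, adjusted p = 0.454). The most abundant genes of the list, FLNA (filamin, 0.50, SE 0.39), CSRP1 (-0.26, SE 0.39) and ROCK2 (-0.12, SE 0.23), were not called in FS.

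Among 15 regulators of smooth muscle, 13 were tested and GATA6, a transcription factor of vascular smooth muscle, was the only one called in a type against both others by molecular identity, higher in FS (1.98, SE 0.62, adjusted p = 0.0478; 9.46% of all genes called). Its 4 FS lay at 5.02 to 12.9 CPM, against 0.724 to 2.24 CPM in PNST and 0 to 7.27 CPM in PWT, and the call was lost under each of the 12 single omissions in which it could be tested (1.72 without S1-12, adjusted p = 0.114). In the other omissions GATA6 did not pass the filter, which it met in only 4 tumors, FS among them. That it was tested therefore depended on its level in FS. MYOCD (myocardin), the coactivator that switches on the contractile genes, was low in all types, from 0 to 9.87 CPM, and was not called in FS (0.93, SE 0.72, adjusted p = 0.458) or PWT (-1.23, SE 0.72, adjusted p = 0.323). The abundant regulators JAG1 (a Notch ligand, -0.93, SE 0.38), KLF4 (-0.11, SE 0.29) and MRTFB (0.36, SE 0.26) were not called in FS. The fibroblast and myofibroblast list covers cells that share ACTA2 and TAGLN. COL1A1, COL3A1, COL5A1 and LUM were called higher in FS (4 of 10), against 9.46% of all genes called. There, 7 of the 10 had a positive log2 fold change and 3 a negative one. PDGFRA was called higher in PNST than in FS (7.13% of all genes called). Without S1-11, 0 of the list were called in FS, against 911 of 15227 genes. The list's summed level was 19266 to 102937 CPM in FS, 17985 to 38492 CPM in PNST and 10028 to 24651 CPM in PWT. Pearson's r of its log2 with the mural cell genes was -0.10 to 0.72, and -0.21 to 0.46 without S1-11. The part of fibroblasts, tumor cells or vessel wall cells in the mural cell genes was not tested.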

How the data were processed

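RNA-seq counts were examined for 16 canine tumors (34 runs: 3 for each of 9 S1 tumors, 1 for each of 7 S2 tumors). Per the study's methods, total RNA was depleted of ribosomal RNA, sequenced on an Ion Proton, aligned to ROS-canfam-01 with STAR2 and counted with htseq-count; versions, annotation and strand setting are not given in the sources used here. The authors deposited raw counts per gene and run, without normalization. Summary rows of htseq-count (69.4% to 77.1% of listed reads) were left out.

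Runs were summed per tumor. In R 4.3.3, counts were tested with edgeR 4.0.16 (TMM, quasi-likelihood F test, all 16 tumors in each fit), with at least 10 reads in at least 4 tumors, Benjamini-Hochberg adjustment over 15408 genes, and calls needing an absolute log2 fold change over 1 at an adjusted p below 0.05. SE is the log2 fold change divided by the square root of F. Correlations used log2 CPM with a prior count of 2. DESeq2 1.42.0 (which gave DES no adjusted p in these comparisons of FS), other normalizations, no filter, a prefix term, S1-04 and S1-05 as 1 sample and omissions of tumors were alternatives. In simulated counts for FS by molecular identity (14874 genes), 44% of genes changed by 1.5 on the log2 scale and 80% of those changed by 2.5 were recovered. Intervals of single counts are exact Poisson intervals at 95%. P-values set the difference between groups against the spread between tumors, with S1-04 and S1-05 counted as 2 tumors.

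The 10 genes and the lists (22 pericyte, 30 contractile, of which 29 were in the table, 15 regulator, 20 skeletal muscle, 12 endothelial, 10 Schwann, 10 fibroblast, 8 leukocyte and 8 epidermal genes) were chosen with earlier results of these data known. All 10 were named; of the pericyte, contractile and regulator lists, genes called in a type against both others and the 3 most abundant; other genes by nearest correlation, and list genes such as MYOCD, COL3A1 or NEB as markers. Genes called most abundant were ranked by mean CPM, which was not adjusted for transcript length because lengths were lacking. No sequences are shown.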

Additional observations from a re-analysis of the deposited data

Results flagged for a closer look

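Single tumors lay far from the rest of their group in 12 of 60 combinations of a gene and a group of 4 to 6 tumors. The limit was Dixon's 95% critical value for the gap between a tumor and its nearest neighbor. A chance rate of about 1 in 20 holds for that value only with independent tests of normally distributed levels. CPM was used here without a log scale, and the groups of both groupings shared most of their tumors. How many of the 12 would arise by chance is therefore not known. S1-11 accounted for 7 of the 12. Its DES of 236 CPM lay above the next FS by molecular identity at 3.68 CPM and above the next FS by diagnosis at 13.1 CPM. Its MYH11 of 320 CPM (next 68.1 CPM) and its MYLK of 124 CPM (next 35.0 CPM) stood apart in FS under both groupings, and its CNN1 of 57.0 CPM (next 16.6 CPM) in FS by diagnosis. S1-11 also had the highest levels of skeletal muscle genes (2544 CPM summed) and of fibroblast genes (102937 CPM summed), and their part in these values was not tested.

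CSPG4 was 115 CPM in S2-11, above the next PWT at 41.8 CPM, under both groupings. CSPG4 was 188 CPM in S1-03, above the next PNST by molecular identity at 88.6 CPM. ACTA2 was 42.1 CPM in S1-04, above the next PNST by molecular identity at 18.5 CPM, and 40.9 CPM in S2-09, above the next PWT by diagnosis at 17.4 CPM.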

How the results depend on the processing

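Of 1399 recomputed log2 fold changes, 1256 kept their direction and side of the threshold, 114 lost the call, 19 gained it and 10 reversed. Most of these values belonged to results not called with all tumors, which had no call to lose. The 1256 therefore do not measure how often calls held. With 1 tumor left out, the number of the 10 genes called ranged from 0 (S1-11) to 4 in FS by molecular identity (3 with all tumors; 911 to 1583 of all genes), 0 to 2 in FS by diagnosis (0; 8 to 1235), 0 to 4 in PWT against FS (2; 1062 to 1898), 0 to 4 in PNST against FS (0; 656 to 1201) and 0 to 4 for any type by molecular identity (2; 1418 to 2299), and stayed at 0 in the other comparisons. In FS by diagnosis the 2 calls came without S2-08, a fit equal to the one by molecular identity. Other settings moved counts as follows, with the count over all genes in parentheses. DESeq2 called 4 genes in PWT against FS (2453 of 20068) and 2 in PNST against FS (1774 of 20068). RLE normalization (1756 of 15408) and no filter (1889 of 36420) called 3 in PWT against FS. The prefix term called 0 in PWT against FS (895 of 15408) and 0 for any type by molecular identity (1076). Without both S1-10 and S2-08, the 2 groupings hold the same tumors. Of 15102 genes, 2 of the 10 (ACTA2 and CNN1) were then called in FS (1028), 0 in PWT against FS (1286) and 0 for any type (1254). The cause was not tested. Reversed values (log2 fold changes) were DES in FS by molecular identity (-2.50 to 2.63 over single omissions), DES in FS by diagnosis (-1.35 to 2.40), MYH11 in FS by diagnosis (-0.29 to 1.53), TAGLN in PWT by diagnosis (-0.76 to 0.078, the latter without S1-12), DES in PWT against FS (-3.06 to 2.36), DES in PWT by molecular identity (0.23 with DESeq2, 0.78 with the prefix term, -2.14 to 0.17 over single omissions), and RGS5 with the prefix term in PWT (-0.17) and in PWT against FS (-0.049). None of these was called with all tumors. No paired analysis was possible because replicate numbers follow accession order only and nothing in the labels pairs tumors. Depth limits CNN1 and DES most (median 8 reads per tumor).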

Other observations

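The endothelial list, whose cells mural cells cover, summed to 297 to 573 CPM in FS, 194 to 705 CPM in PNST and 189 to 558 CPM in PWT by molecular identity, and all 12 of its genes were detected in all FS and PNST. DES (r = 0.64, and 0.61 without S1-11), MYH11 (0.58, and 0.52) and MYLK (0.57, and 0.53) had the highest Pearson's r with the summed log2 level of that list over 16 tumors, and CSPG4 a negative one (-0.15, and -0.32). Schwann and neural crest genes summed to 42.4 to 115 CPM in FS, 45.5 to 251 CPM in PNST and 34.4 to 112 CPM in PWT. Leukocyte genes summed to 77.3 to 629 CPM in FS, 147 to 374 CPM in PNST and 129 to 453 CPM in PWT. Epidermal genes summed to 19.5 to 1539 CPM in FS, 9.38 to 1418 CPM in PNST and 4.18 to 1211 CPM in PWT. With them MYLK had r = 0.61 (0.72 without S1-11), MYH11 0.59 (0.66) and ACTA2 0.45 (0.50). The other mural cell genes had r of -0.077 to 0.37 (-0.17 to 0.46 without S1-11).

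The 9 S1 tumors were sequenced in 3 runs each, as repeats of the same tumor. DES passed the limit set for counting error between runs of a tumor (chi-square over 5.99) in 5 of the 9, ACTA2, RGS5, MCAM and CALD1 in 1 each, CSPG4, MYH11 and TAGLN in 2 each, and CNN1 and MYLK in 0. With so many tests, some pass this limit by counting error alone, so single tumors over it cannot be told from such error. The chi-square is also approximate at few reads, as for DES in S1-02 (6 reads, chi-square 6.78). In S1-11, DES was 221, 190 and 153 CPM in the 3 runs (before TMM scaling).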
